A study of Mus musculus with 2 samples.

Results

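Open chromatin at the genes of the hemidesmosome and of laminin-332 was examined by ATAC-seq, in which a transposase cuts and tags DNA that is not wrapped up, in basal cells of mouse skin epidermis. The 8 genes were the integrin genes Itga6 and Itgb4, Col17a1, Dst, Plec, Cd151, Lama3 and Lamb3. Their peaks were those overlapping such a gene, or lying within 50 kb of it when it was the nearest protein-coding gene, which gave 120 of the 84594 peaks in the deposited table. There was 1 ablation library, labelled as basal lineage ablation, and 1 control library, labelled wild type. In each, 50000 cells with high α6 integrin, without CD34 or Lrig1, and positive for the fluorescent reporters of keratin 14 (K14) lineage tracing had been sorted. The sources used here do not give the agent of the ablation, the number of animals behind a library, or their age and sex. The sort selects on the protein made from Itga6, and the reporters on a basal keratin promoter.

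Hemidesmosomes rivet the basal keratinocyte to the basement membrane. Laminin-332, a matrix protein that holds the α3 and β3 chains, is bound outside the cell by the integrin of the α6 and β4 chains, which is held by the transmembrane collagen XVII and the tetraspanin CD151. Inside the cell, plectin and the epithelial form of dystonin tie that complex to keratin filaments. Loss of these parts causes blistering skin, and the complexes are taken apart when keratinocytes migrate over a wound.

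Nuclear peaks held 12463908 reads in the ablation library and 17056996 in the control library, and the 120 peaks took 0.173% and 0.183% of them. Mitochondrial peaks, left out throughout, made up 31.2% of all reads of the table in ablation and 7.31% in control, and their part in any difference given here was not tested. All 4 basal keratinocyte markers looked up (Krt5, Krt14, Krt15 and Trp63) had peaks. Their log2 ratios of ablation to control were above 0 for 3 and below 0 for 1 (Trp63, at -0.02), with a median of 0.11. Of the markers of other cells, peaks above the signal filter were assigned to 3 of 6 fibroblast genes (none to Col1a2, Col3a1 or Lum), 4 of 5 endothelial genes (none to Cdh5), 5 of 5 immune genes, 3 of 4 melanocyte genes (none to Tyr) and 3 of 3 Schwann cell genes. The summed signal of each list, as a mean over all its genes, lay between 98.7 and 624.2 normalized reads in ablation and between 95.9 and 657.0 in control, against 2112 and 2008 for the basal markers. These means include the genes without such a peak, and single genes departed from them. The endothelial Pecam1 had 2531 in ablation and 2645 in control, above Krt5 at 2187 and 1890. The melanocyte gene Pmel had 1481 and 1648, and the basal Krt15 had 406 and 363. The 3 melanocyte genes were all below 0, with a median log2 ratio of -0.39, and the part of such cells in the values was not tested. Cd34 and Lrig1, whose proteins the sort excluded, had peaks in both libraries, with log2 ratios of ablation to control of 0.41 and 0.26. As a mean over these 2 genes, the summed signal was 1360 normalized reads in ablation and 1114 in control, above the range of the lists of other cells. Each group is a single library, which leaves the spread between animals unmeasured, and no difference was tested. Intervals are exact Clopper-Pearson 95% intervals for counting error only, and reads copied by PCR are not independent molecules. At this depth 3 reads, the limit that a count of 0 allows, correspond to 2.72 normalized reads in ablation and 2.12 in control.

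From the reference promoter table, 7 windows were used, for 4 of the genes (Col17a1, Cd151, Lamb3 and Dst). Each reached from 250 bases before to 50 bases after an annotated start. No window of Itga6, Itgb4, Plec or Lama3 was used. All 7 lay wholly inside a peak, both windows of Lamb3 in the same one. Of the 32851 windows of the table, 45.8% were touched by any peak, a looser measure than lying wholly inside. Shown are 5 of them, the first window of each gene and both of Dst, since these hold annotated starts at which ratios are given below and since the windows of Dst differ in base composition and in ratio. Sequences are from RefSeq, build GRCm38.p6, written 5′ to 3′ from chr19:47691993-47692292, chr7:141467112-141467411, chr1:193301744-193302043, chr1:34011345-34011644 and chr1:34160010-34160309. Capitals mark matches, on either strand, to the TATA box letters TATAAA, which are found in 13.6% of all windows, or to the AP-2 letters GCCNNNGGC, found in 16.6%.
Col17a1, minus strand: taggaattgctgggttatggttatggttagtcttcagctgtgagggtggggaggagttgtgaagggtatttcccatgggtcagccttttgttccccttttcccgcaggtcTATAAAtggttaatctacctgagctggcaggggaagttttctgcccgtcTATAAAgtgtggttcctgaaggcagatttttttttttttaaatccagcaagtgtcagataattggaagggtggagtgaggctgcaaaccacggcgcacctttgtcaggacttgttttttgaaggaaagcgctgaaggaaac
Cd151, plus strand: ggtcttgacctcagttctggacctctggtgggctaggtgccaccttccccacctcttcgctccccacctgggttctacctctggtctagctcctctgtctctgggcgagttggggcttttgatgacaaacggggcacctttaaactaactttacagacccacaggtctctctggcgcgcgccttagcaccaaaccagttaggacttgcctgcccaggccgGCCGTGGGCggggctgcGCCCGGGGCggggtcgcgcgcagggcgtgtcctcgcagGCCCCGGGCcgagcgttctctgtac
Lamb3, plus strand: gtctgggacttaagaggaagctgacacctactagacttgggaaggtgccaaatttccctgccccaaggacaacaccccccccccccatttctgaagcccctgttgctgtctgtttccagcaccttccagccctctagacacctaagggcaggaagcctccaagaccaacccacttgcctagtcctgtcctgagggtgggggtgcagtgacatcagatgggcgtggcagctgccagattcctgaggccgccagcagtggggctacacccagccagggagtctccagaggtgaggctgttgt
Dst upstream start, plus strand: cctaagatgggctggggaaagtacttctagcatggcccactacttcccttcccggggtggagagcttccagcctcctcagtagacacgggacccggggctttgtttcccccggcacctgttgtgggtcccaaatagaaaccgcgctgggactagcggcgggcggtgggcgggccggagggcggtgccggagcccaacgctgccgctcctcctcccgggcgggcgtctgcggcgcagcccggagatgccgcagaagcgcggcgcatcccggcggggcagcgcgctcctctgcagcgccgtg
Dst downstream start, plus strand: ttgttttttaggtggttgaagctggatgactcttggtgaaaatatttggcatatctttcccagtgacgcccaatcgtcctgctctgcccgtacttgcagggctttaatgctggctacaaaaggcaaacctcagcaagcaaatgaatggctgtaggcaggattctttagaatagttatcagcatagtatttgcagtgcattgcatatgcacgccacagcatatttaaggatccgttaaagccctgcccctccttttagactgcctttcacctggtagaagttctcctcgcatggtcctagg

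The Col17a1 window held 2 matches to TATAAA and the printed Cd151 window 3 to the AP-2 letters. The other Cd151 window held 1 match to the AP-2 letters. Neither set of letters was found in the windows of Lamb3 or Dst. The AP-1 letters TGANTCA, present in 7.81% of all windows, were not in any of the 7, and the loose p53-family pattern, present in 70.2%, was in each of the 7. A match is a description of the letters and not a binding site. The upstream window of Dst had a GC content of 70.3% and the downstream window 46.0%.

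All 8 genes had a lower summed signal in ablation than in control, with log2 ratios of ablation to control between -0.35 for Col17a1 and -0.09 for Plec. Over the 16272 genes with a peak above the filter 61.6% lay below 0 and the median was -0.07. All 8 lay below that median. The ratios of Col17a1, Itga6 and Dst were furthest below it, at the 6.82nd, 14.2nd and 23.9th percentile of all genes, and Plec lay at the 45.0th. The counting interval lay below 1 for all 8 genes, as it did for 32.1% of genes, and intervals narrow with the number of reads. For the scalings that follow, the share of all genes with such an interval was not computed. With each library divided by its nuclear total, the interval lay below 1 for 3 of the 8, Itga6, Col17a1 and Dst. It lay below 1 for the same 3 with strong peaks at gene ends centred on 0. These values shift with the scaling: Plec was at -0.0028 when each library was divided by its nuclear total, at 0.0027 when strong peaks at gene ends were centred on 0, and at 0.10 after a loess correction that centres the ratio at every signal level, while the other 7 stayed below 0 under these scalings.

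**Figure D1:**
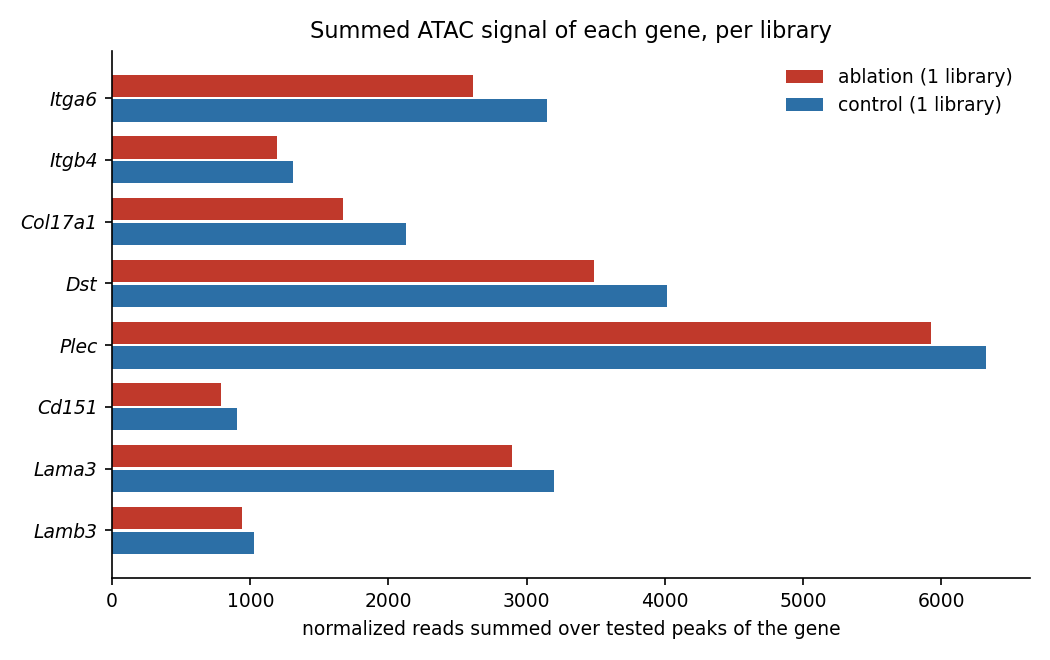
Summed ATAC signal of each gene in normalized reads (horizontal axis) in the ablation library (upper bar, red) and the control library (lower bar, blue), over peaks above the signal filter. For Plec, the gene with most signal, the bars reach 5928 normalized reads in ablation and 6324 in control.

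Of the 120 peaks, 115 passed the filter on low signal, a mean over the 2 libraries of at least 13.96 normalized reads. Among them 77 (67.0%) had a log2 ratio below 0, against 51.3% of the 76147 peaks tested, and the median log2 ratio was -0.17, against -0.01 for all tested peaks. At least 2-fold higher in ablation was 1 peak (0.870%), against 4.48% of all tested peaks. At least 2-fold lower were 4 peaks (3.48%), against 1.88%. At the milder limit of 1.5-fold, 8 peaks were higher (6.96%, against 13% of all) and 12 lower (10.4%, against 7.47%). The counting interval lay above 1 for 10 of the 115 peaks (8.70%, against 15% of all tested peaks) and below 1 for 33 (28.7%, against 18.2%), and included 1 for the other 72. The peaks of these genes thus ranged over both directions, and most of them stood within 1.5-fold.

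**Figure D2:**
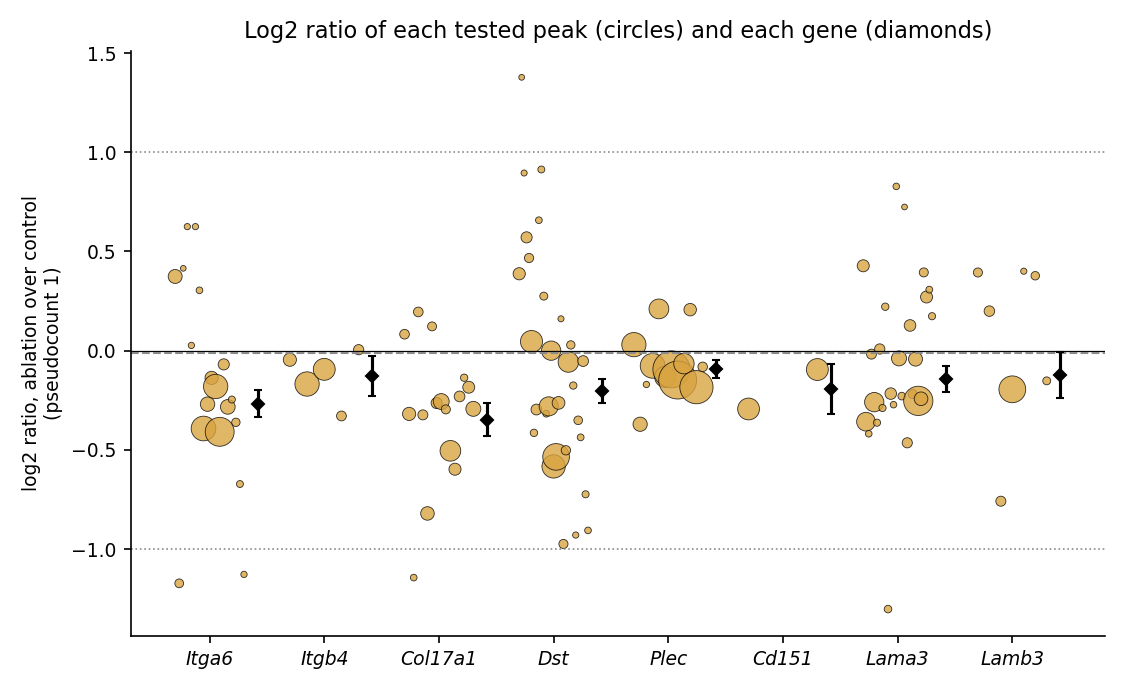
Log2 ratio of ablation to control (vertical axis) for each of the 115 tested peaks, as circles ordered by position within each gene and with an area that grows with mean signal, and for each gene's summed signal, as diamonds with 95% counting intervals. The grey dashed line is the median of all tested peaks and the dotted lines mark 2-fold. All 8 diamonds lie below 0, and the circles of Dst spread most widely, with 1 above the upper dotted line.

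The laminin chain genes stood below the middle of all genes, Lama3 at the 35.1st percentile and Lamb3 at the 39.0th, with Itgb4 between them at the 38.2nd. Lama3, which encodes the α3 chain, spans 249.6 kb of chromosome 18 and had 28 peaks, 26 of them tested. Its summed signal was 2892 normalized reads in ablation against 3195 in control, 0.905-fold (0.865 to 0.947), and 16 of the 26 peaks were below 0. The gene's strongest peak lay inside it, 170.6 kb from its lower-coordinate end, with 705.6 normalized reads in ablation against 841.2 in control, a log2 ratio of -0.25. The peak at that lower end was at -0.36, with 268.5 normalized reads in ablation against 344.4 in control. Lama3 also held the lowest ratio of all 115 peaks. That peak, 98.1 kb from the same end, had 23 reads in ablation against 75 in control, or 20.9 against 52.9 normalized reads, and was 2.54-fold lower. Opposite to it, a peak 121.7 kb from that end had 30.8 normalized reads in ablation against 16.9 in control, a log2 ratio of 0.83. A peak 12.1 kb below the gene, outside it, was 1.35-fold higher (1.06 to 1.71).

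Lamb3, the gene of the β3 chain, had 7 peaks, and 1 of them held 65.7% of its signal. This peak covers both annotated starts of the gene printed in the promoter table and had 602.2 normalized reads in ablation against 689.4 in control, 0.874-fold (0.790 to 0.965). The summed signal of the gene was at 0.918-fold (0.847 to 0.995), while 4 of the 7 peaks were above 0 and the median log2 ratio over the peaks was 0.20. The lowest Lamb3 peak, beside the starts at chr1:193300163-193300392, had 57.1 normalized reads in ablation against 97.4 in control and was 1.70-fold lower.

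Of the laminin receptor genes, Itga6 had the lower ratio and Itgb4 the higher, with counting intervals that overlap slightly. Itga6 had 18 peaks and 2610 normalized reads in ablation against 3144 in control, 0.830-fold (0.792 to 0.870). Its ratios were split by place. All 8 peaks that overlap the gene were below 0, with 2200 normalized reads in ablation against 2720 in control, 0.809-fold (0.769 to 0.851). The 3 peaks beyond the higher-coordinate end were also below 0, at 0.646-fold (0.492 to 0.844) together. On the lower-coordinate side 6 of 7 peaks, 19.1 to 46.9 kb from the gene, were above 0, and together they were at 1.09-fold (0.945 to 1.25), an interval on both sides of 1. Those 7 peaks had 332.9 normalized reads in ablation against 305.6 in control in sum, and ratios of the table decline with signal. After the loess correction the median over peaks was 0.21 on the lower-coordinate side. It was -0.21 for the peaks overlapping the gene and -0.81 for those beyond the higher-coordinate end. The division by place was noticed in these values, and neither it nor the part of signal level in it was tested.

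The strongest Itga6 peak, 19.0 kb from the lower-coordinate end, had 647.6 normalized reads in ablation against 860.2 in control, a log2 ratio of -0.41. The peak over the lower-coordinate end of the gene had 470.7 normalized reads in ablation against 618.2 in control, at -0.39. Both were lower than the median of the strongest decile of all peaks, -0.18. The outlying values came from weaker peaks. A peak 44.3 kb below the gene had 33.6 normalized reads in ablation against 76.9 in control and was 2.29-fold lower. Another, 6.0 kb above the gene, had 12.7 normalized reads in ablation against 28.9 in control and was 2.28-fold lower. The highest Itga6 ratios, 0.63, belonged to a pair of weak peaks with 27 reads in ablation against 22 in control each.

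Itgb4, whose chain carries the long cytoplasmic tail that plectin binds, had 5 peaks. They held 1196 normalized reads in ablation against 1307 in control, 0.915-fold (0.852 to 0.983), and ranged between -0.33 and 0.00 on the log2 scale. The peak over the lower-coordinate end of Itgb4 had 497.9 normalized reads in ablation against 559.6 in control, close to the ratio of strong peaks in general (-0.17 against a median of -0.18). Cd151, a tetraspanin that binds the laminin receptors, had 2 peaks, each over an annotated start. The peak at the first start had 379.1 normalized reads in ablation against 465.0 in control, 0.815-fold (0.719 to 0.923). The peak at the second start had 410.9 against 438.9, 0.936-fold (0.828 to 1.06). The intervals of these 2 peaks overlap.

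Col17a1, the gene of collagen XVII, had the lowest ratio of the 8. Its 16 peaks held 1673 normalized reads in ablation against 2130 in control, 0.785-fold (0.741 to 0.833), and 13 of them were below 0. The gene lies on the minus strand of chromosome 19, so that peaks above its higher-coordinate end are upstream of its start. All 7 upstream peaks, 2.0 to 18.2 kb away, were below 0, with 856.2 normalized reads in ablation against 1121 in control, 0.764-fold (0.704 to 0.829). The strongest was an upstream peak at chr19:47698092-47698939, with 312.0 normalized reads in ablation against 443.2 in control, at a log2 ratio of -0.50. Its upstream neighbour at chr19:47699657-47700183 had 94.3 normalized reads in ablation against 143.3 in control, at -0.60. The peak over the start, where the window printed above lies, had 197.7 normalized reads in ablation against 236.4 in control, a smaller difference of -0.26.

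Inside Col17a1 the 9 peaks were mixed, 3 above 0 and 6 below, and summed to 817.2 normalized reads in ablation against 1010 in control. The clearest of them by reads lay inside the gene 8.3 kb from its start, with 122 reads in ablation against 278 in control, 1.77-fold lower (a ratio of 0.564, 0.452 to 0.700). The lowest, 31.9 kb from the start, rested on 17 reads in ablation against 50 in control and was 2.29-fold lower. The highest, at 0.20, had 75.3 normalized reads in ablation against 65.6 in control. Among the 8 genes, Col17a1 and Itga6 were those with the lowest ratios, and for Col17a1 the value stayed at -0.32 after the loess correction, while that of Itga6 was -0.16.

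**Figure D3:**
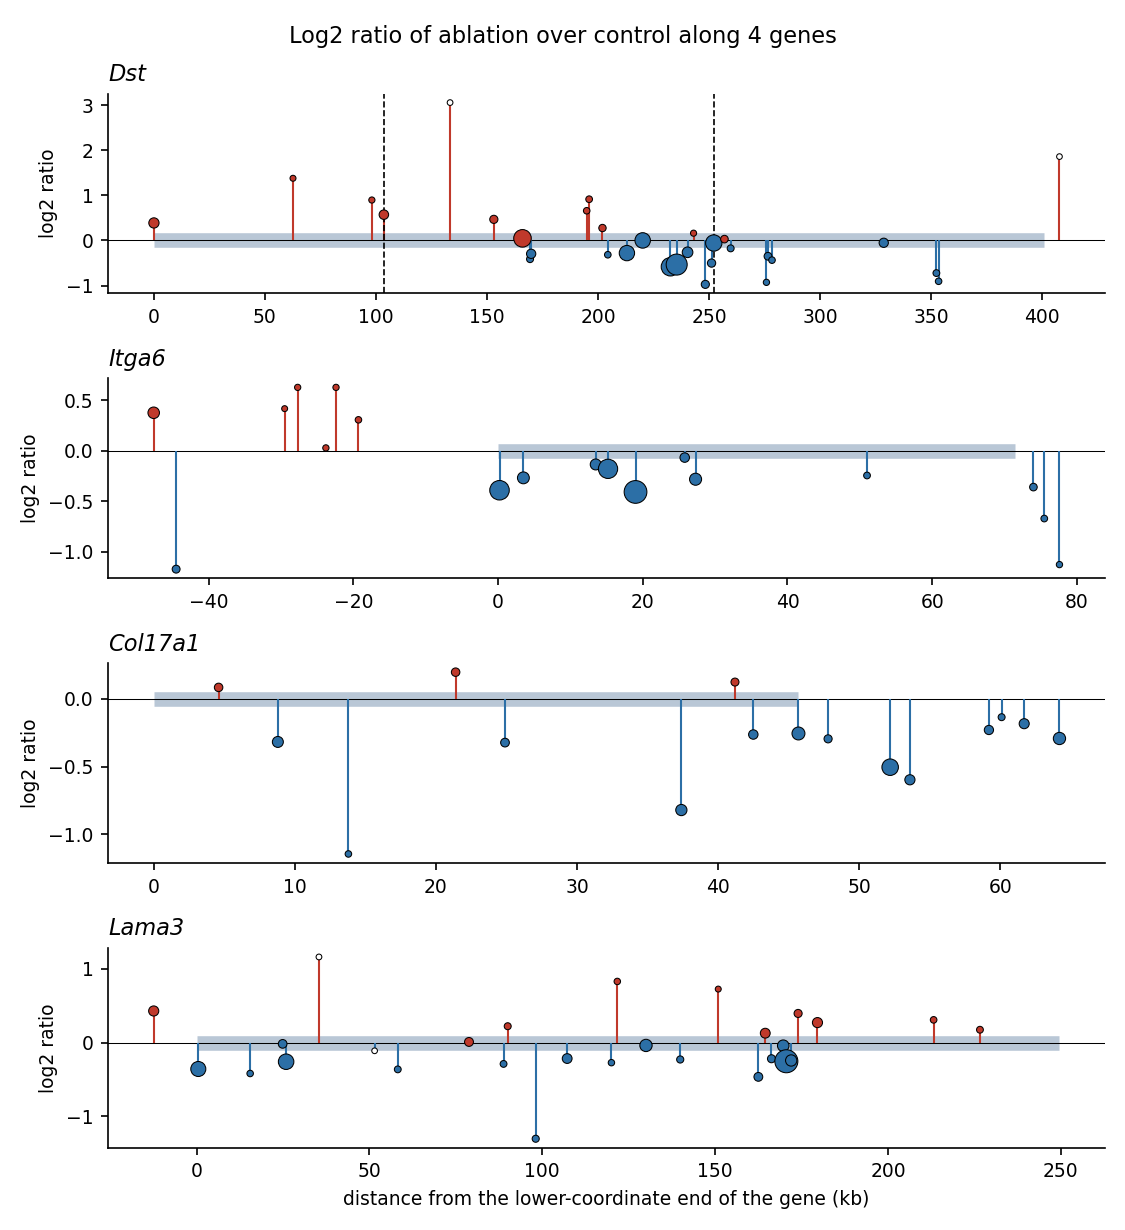
Log2 ratio of ablation to control (vertical axes) of each peak of Dst, Itga6, Col17a1 and Lama3, against its distance in kb from the lower-coordinate end of the gene (horizontal axes, own scale in each panel). The pale bar is the gene, circle area grows with signal, red is above 0 and blue below, open circles are peaks under the signal filter, and the dashed lines on Dst are its 2 starts in the promoter table. All 4 tested Dst peaks up to the first start are above 0, and 8 of 9 from the second start on are below 0.

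Dst, the dystonin gene, encodes a short epithelial protein of the hemidesmosome, known as BPAG1e, and much longer proteins of nerve and muscle. It spans 400.8 kb of chromosome 1 and had 31 peaks, 29 of them tested, with 3486 normalized reads in ablation against 4015 in control, 0.868-fold (0.833 to 0.905). Its ratios had the widest spread of the 8 genes, with an SD of 0.58 on the log2 scale over peaks. Over all tested peaks the spread widens as signal falls, and the part of signal level in this SD was not tested. The ratios of Dst were divided along the gene. Up to and including the upstream start of the promoter table, 4 of 4 tested peaks were above 0, with 302.0 normalized reads in ablation against 204.6 in control, 1.48-fold higher (1.26 to 1.73). Of these, 1 peak also overlaps the neighbouring gene Bend6, and without it the other 3 had 164.2 normalized reads in ablation against 99.5 in control, 1.65-fold (1.32 to 2.07). Between the starts 6 of 16 were above 0, with 2528 normalized reads in ablation against 3067 in control, 0.824-fold (0.786 to 0.865). From the downstream start on 1 of 9 was above 0, with 655.8 against 743.1, 0.882-fold (0.802 to 0.971). The counting intervals of the first stretch and of the other 2 do not overlap. They cover counting error alone, and how often stretches of other genes differ in this way was not counted. The split of Dst at its starts was not in the plan, and the difference, seen in 1 pair of libraries, was not tested. Of the 4 peaks of the first stretch, that at chr1:34005781-34006352 stands among the first 9840 peaks of the table, 90.2% of which were higher in ablation.

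The Dst peak over the upstream start had 117.9 normalized reads in ablation against 79.0 in control, 1.49-fold (1.15 to 1.94). The peak over the downstream start had 362.8 normalized reads in ablation against 377.5 in control, 0.961-fold (0.842 to 1.10). These intervals do not overlap either, again for counting error alone and with no count over other pairs of peaks. Per kb of peak, the signal at the downstream start was 392.2 normalized reads in ablation and 408.1 in control, above the 145.9 and 97.8 at the upstream start. The peak at the lower end of Dst, shared with Bend6, was at 0.39 and cannot be given to either gene.

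The strongest Dst peak, at chr1:34142963-34143713 between the starts, had 520.6 normalized reads in ablation against 755.1 in control and was 1.45-fold lower. A neighbouring strong peak at chr1:34139886-34140994 had 388.2 normalized reads in ablation against 582.2 in control, at a log2 ratio of -0.58. These were the lowest ratios among the 18 peaks of the group in the strongest decile of all peaks. The lowest Dst ratio, -0.97, lay 248.3 kb into the gene, from 45 reads in ablation against 115 in control. The highest, 1.38, was the only tested peak of the group at least 2-fold higher in ablation, and rested on 24 reads in ablation against 11 in control. The median after the loess correction was 0.64 for the peaks up to the upstream start and -0.44 for those from the downstream start on, so the division remained after that correction.

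Plec encodes plectin, the linker of the β4 chain to keratins, and had the highest signal per length of the 8 genes. Its 12 tested peaks held 592.5 normalized reads per kb of peak in ablation against 632.1 in control, followed by Cd151 at 385.2 against 440.7 and with Lama3 lowest at 166.7 against 184.2. The summed signal of Plec was 5928 normalized reads in ablation against 6324 in control, 0.937-fold (0.908 to 0.968). Its strongest peak was 2254 bp long, with 1242 normalized reads in ablation against 1376 in control, at -0.15. A second, at chr15:76195698-76197020, had 1206 against 1288, at -0.09. The tested ratios of Plec lay between -0.37 and 0.21, a narrow range beside that of Dst. Of the 12, 0 passed 1.5-fold in either direction, against 13% of all tested peaks higher and 7.47% lower. Spread narrows with signal. The 5th to 95th percentile of all tested peaks ran from -0.44 to 0.11 in the strongest decile and from -1.08 to 1.43 in the weakest. The part of signal level in the narrow range of Plec was not tested.

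The log2 ratio of the table declines with signal, with a median of 0.20 in the weakest decile of tested peaks and -0.18 in the strongest, so each peak was also set beside the median of its own decile. Of the 115 peaks 47 (40.9%) lay above that median, as 49.9% of all tested peaks do. The share differed between genes. Above it were 3 of 16 peaks of Col17a1, 6 of 18 of Itga6 and 11 of 29 of Dst, against 8 of 12 of Plec. In the strongest decile, 10 of 18 peaks of the group were above the median of all peaks there. Peaks touching a promoter window had a median of -0.08 over the 11465 such peaks of the table, of which 62.9% were below 0. By the same measure, 7 tested peaks of these genes touched a window of any gene, with a median of -0.095 and 5 below 0. Without the peak shared by Dst and Bend6, the 6 peaks that hold the 7 windows used had a median of -0.14, and 5 of them were below 0.

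**Figure D4:**
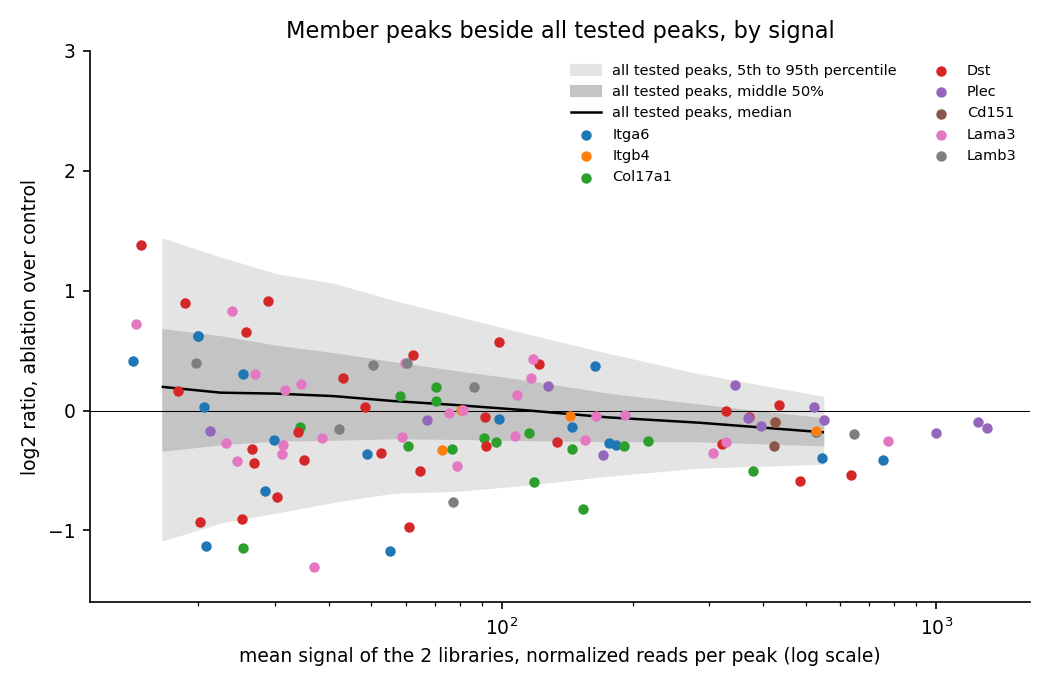
Log2 ratio of ablation to control (vertical axis) against the mean signal of the 2 libraries in normalized reads per peak (horizontal axis, log scale) for the 115 tested peaks, coloured by gene. Bands and line give the spread and median of all 76147 tested peaks by deciles of signal. The line is at -0.18 in the strongest decile, and the Plec peaks at its right lie near or above it.

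Other genes of the junction between epidermis and dermis, a list of 15 chosen with earlier results known, had a median log2 ratio of -0.14, with 4 above 0 and 11 below. Over all genes 61.6% lay below 0. Of the 123 tested peaks of the list, 2 were at least 2-fold higher and 1 at least 2-fold lower, against 4.48% and 1.88% of all tested peaks. Highest were the keratin gene Krt5 at 0.21 and Col7a1, the collagen of anchoring fibrils, at 0.07. Lowest were Adam17, a sheddase of cell surface proteins, at -0.28, and the laminin receptor gene Itga3 at -0.21. Integrin α6β4 is also made by Schwann cells and endothelium, which the gate on K14 lineage reporters selects against. All 3 Schwann markers were above 0, with 513.4 normalized reads in ablation against 430.5 in control. Of the 4 endothelial markers with a tested peak 2 were above 0, and the 4 together had 3121 against 3285. Most of that sum was Pecam1, with 2531 against 2645, at -0.06. The other endothelial genes lay apart, Tie1 at 1.23, Kdr at 0.48 and Tek at -0.63. The part of Schwann and endothelial cells in the values of Itga6 and Itgb4 was not tested.

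**Figure D5:**
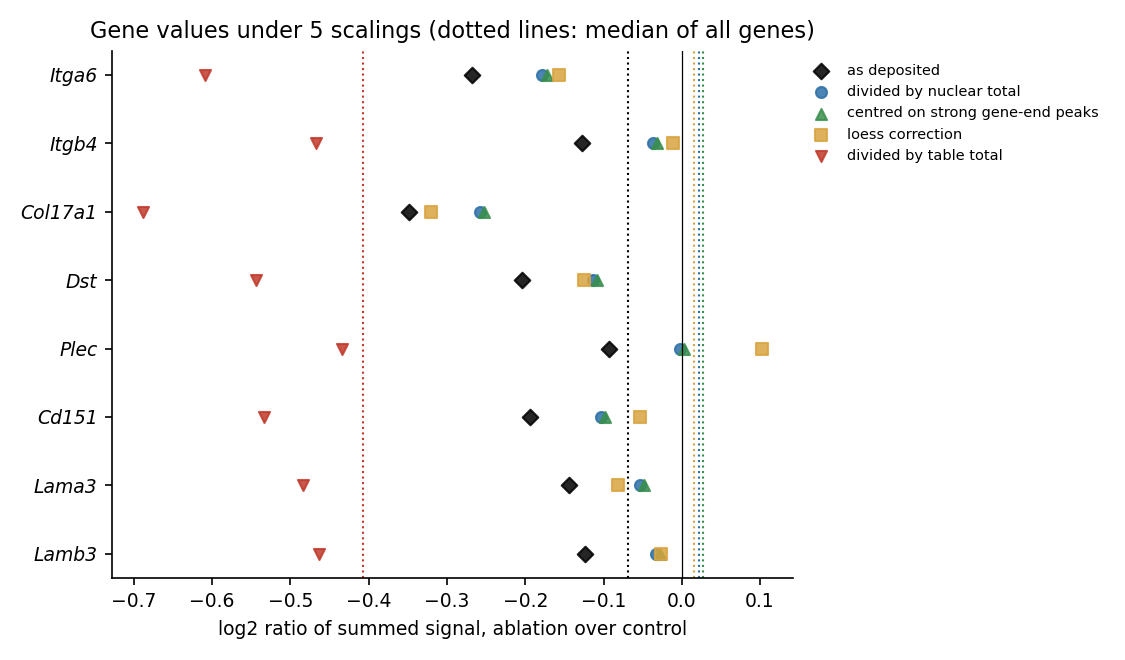
Log2 ratio of ablation to control of the summed signal of each gene (horizontal axis) under 5 scalings, shown by symbol and colour, with dotted lines for the median of all genes under each. Plec reaches 0.10 after the loess correction, and all 8 genes lie to the left of the median of all genes as deposited.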

How the data were processed

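The submitters' processing notes name build mm10 and the tools Bowtie2 2.3.4.2, MACS2 2.1.0.20151222, Trimmomatic, HTSeq and Picard, without roles. The authors deposited 1 table of a normalized signal per peak, 116411 rows, in which repeats of a peak were merged. All values (100%) were whole multiples of 1 step per library (0.907 in ablation, 0.706 in control) within 0.1 of a read, so whole reads were recovered; with 1 library per group no count test was run. The method behind the normalization, and how peaks were merged and selected, are not stated. The first 9840 peaks of the table, 90.2% of them higher in ablation, hold 12 of the 120, the next 8075 (17.6% higher) hold 11, and the rest hold 97. Among the next 8075 are the lowest tested peaks of Col17a1, Dst and Lamb3, and the Itga6 peak 6.0 kb above the gene. The lowest tested peaks of Lama3 and Itga6 are among the rest. The part of this order in the ratios was not tested.

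The control column bears the number 2 where the title of its sample has 1, and was matched by its CTRL tag; the other was taken as ablation, the only sample left. Coordinates are as deposited, and whether starts count from 0 or 1 is not stated. Genes came from RefSeq GRCm38.p6, the assembly behind mm10; all 8 matched by symbol.

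The log2 ratio of ablation to control has a pseudocount of 1, on peaks at or above the 10th percentile of mean signal; a gene's value is that of its summed signal. Folds and their intervals use the reads without a pseudocount. All 8 genes are named, with their strongest, start or end, highest and lowest peaks, and of the junction list the 2 highest and the 2 lowest of the 15 genes used, 1 further gene being left out and not reported here; other peaks were named after their values were seen. Members and lists were chosen with earlier results of these data known. The steps were tested on simulated reads. Columns left unused numbered 0. Versions were scipy 1.17.1, pandas 2.3.3, numpy 2.4.6, matplotlib 3.10.9, statsmodels 0.14.6 and Python 3.11.15.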

Additional observations from a re-analysis of the deposited data

Results flagged for a closer look

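Among the 5 peaks of these genes that the signal filter left out of the comparisons, 3 held more signal in ablation than in control, beyond counting error, as did 16.5% of the 8444 nuclear peaks under the filter. A Dst peak at chr1:34041149-34041486, between the starts, had 21 reads in ablation against 2 in control, a ratio of 13.5 (3.30 to 119). Another Dst peak, 6.9 kb beyond the higher-coordinate end, had 17 reads against 5, a ratio of 4.37 (1.55 to 15.1). A Lama3 peak 35.4 kb from the lower-coordinate end of the gene had 17 reads against 9, a ratio of 2.43 (1.02 to 6.18). In the other direction a Plec peak 3.1 kb below the gene had 6 reads in ablation against 24 in control, a ratio of 0.321 (0.107 to 0.807). All 3 higher peaks stand among the first 9840 peaks of the table, where 89.3% of the peaks under the filter are higher in ablation and 33.2% beyond counting error. The Plec peak stands among the next 8075, where 16.7% of those under the filter are higher and 18.3% are lower beyond counting error. The part of this order in the 4 ratios was not tested.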

How the results depend on the processing

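No paired analysis was possible because each group has 1 library. The 13 alternatives of the plan were run, and centring on strong peaks at gene ends was added after the data were seen. Shares of all peaks called are given above for the main setting alone. The counts of called peaks under other settings therefore have no such share beside them and describe the group alone. The main shift came from the scaling. Dividing by the table total, mitochondrial reads included, moved the median of all peaks by -0.33 and gave Itga6 -0.61, Itgb4 -0.47, Col17a1 -0.69, Dst -0.54, Plec -0.43, Cd151 -0.53, Lama3 -0.48 and Lamb3 -0.46, a peak median of -0.49, 10 peaks at least 2-fold lower, 1 at least 1.5-fold higher, 45 at least 1.5-fold lower and 0 junction genes above 0. Division by the nuclear total gave Itga6 -0.18, Col17a1 -0.26, Dst -0.11, Plec -0.0028 and Lama3 -0.053, a peak median of -0.078 and 2 peaks at least 2-fold higher. Centring on strong gene-end peaks gave Itga6 -0.17, Col17a1 -0.25, Dst -0.11, Plec 0.0027 and Lama3 -0.048, a peak median of -0.072 and 2 peaks at least 2-fold higher. After the loess correction Itga6 was at -0.16, Itgb4 at -0.012, Dst at -0.13, Plec at 0.10 and Cd151 at -0.054, the peak median at -0.11, with 7 peaks at least 2-fold lower, 4 at least 1.5-fold higher, and 8 junction genes above and 7 below 0.

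The strongest peak alone gave Itga6 -0.41, Col17a1 -0.50, Dst -0.54, Plec -0.15 and Lama3 -0.25, and the median of peaks gave Lamb3 0.20, the direction of its weaker peaks. Peaks at least 2-fold higher numbered 4 without a filter and 0 with the filter at the 25th percentile, which left 3 at least 1.5-fold higher. A pseudocount of 5 left 2 peaks at least 2-fold lower and 4 at least 1.5-fold higher. Overlapping peaks alone, or those within 5 kb, left 2 at least 2-fold lower. The Dst peak called higher had 24 and 11 reads, and the 4 peaks called lower had between 14 and 37 reads in ablation and between 41 and 109 in control. At this depth the counting interval included 1 for 72 of the 115 peaks.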
